A study of Mus musculus with 14 samples.

Results

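Allele-specific RNA-seq was examined for the X-linked SNPs between 120 and 150 Mb (mm10), a stretch that holds the Bex/Tceal and the Armcx/Gprasp gene clusters. All SNPs of the deposited table with a position from 120 Mb up to 150 Mb were taken, except the 59 SNPs in the gene bodies of Taf7l, Prps1, Nxt2, Acsl4 and Alg13. This left 261 of the 2239 SNPs in the table, and they fell in 42 of the 355 genes with SNPs. By the labels, the cells were female ES cells derived from E3.5 embryos of 129/C57 dams and CAST sires, with the genotype Setdb1+/+ Xist-deltaA/+. The paper's text names 129 dams for this cross. Untransduced cells were collected at day 0, before differentiation. Differentiating cells were collected at day 3 and day 5 after retroviral transduction and puromycin selection, with the non-silencing hairpin Nons, with hairpin shSetdb1.4 or with hairpin shSetdb1.6, both directed against the H3K9 methyltransferase Setdb1. Each of these 7 conditions had 2 replicates, which gave 14 libraries. The Xist-deltaA allele lies on the 129 X chromosome of every library, including the controls, so the CAST X is the chromosome that is inactivated (Xi) and the 129 X stays active (Xa). The cultures are reported to contain XO cells, which have lost an X chromosome, and their share in each library was not measured here. The labels place the transduction on day 2 of differentiation, and the study's methods place it when differentiation was induced. Nothing in the labels says that the replicates came from separately derived lines. The paper describes a single ES cell line of this cross, used in 2 independent experiments. The tests therefore measure the spread between these libraries and do not extend to other lines.

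In female mammals the long non-coding RNA Xist coats an X chromosome and starts its silencing, so the share of RNA from that chromosome falls as embryonic stem cells differentiate. Xist without its A repeat is defective in silencing. Genes of the X chromosome are silenced at different speeds, and some escape. The Bex and Tceal genes encode small proteins, several of them abundant in brain, and the Armcx and Gprasp genes encode related proteins with armadillo-like repeats that act at mitochondria or in the sorting of G-protein-coupled receptors. The genes of both families lie close together on the X chromosome.

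The SNPs on which the results turn are shown with the 10 bases on either side. Each is in the sense of the transcript, 5′ to 3′, as read from GENCODE M21 transcripts (mm10), with the polymorphic base in capitals. The mm10 genome is that of C57BL/6J, and its base, the reference base of the table, was taken as the 129 allele. Whether the 129 X chromosome carries that base at every SNP was not checked. A sequence named 129 is therefore the reference sequence, and one named CAST is the same sequence with the alternative base. Tceal9 has 3 SNPs, 2 of which are adjacent in the 3′ part of the transcript and are not shown, and the last lies upstream (chrX:136245153-136245173, plus strand).
Tceal9 upstream SNP, 129: cagctcccttTagccttgcag
Tceal9 upstream SNP, CAST: cagctcccttCagccttgcag
The SNPs of Bex2 (chrX:136066653-136066673, minus strand, UTR) and Bex1 (chrX:136214425-136214445, minus strand, coding sequence) are the only SNPs of these genes, and those shown for Rnf128 (chrX:139672801-139672821, plus strand, UTR) and Arxes2 (chrX:135994508-135994528, plus strand, UTR) have the most reads in their gene. These genes carry the differences in allele ratio described below.
Bex2, 129: gtgttttcgaCtcagtcttac
Bex2, CAST: gtgttttcgaTtcagtcttac
Bex1, 129: aaaactgtgcAcctagaggag
Bex1, CAST: aaaactgtgcGcctagaggag
Rnf128, 129: aattttgtgaTtgcatttgtt
Rnf128, CAST: aattttgtgaAtgcatttgtt
Arxes2, 129: ctctctgcatTggaaacgggg
Arxes2, CAST: ctctctgcatCggaaacgggg
In Armcx1 and Arxes1, a SNP with few CAST reads (chrX:134718749-134718769 and chrX:136034708-136034728, both plus strand, UTR) stands beside SNPs of the same gene with nearly equal or more CAST reads, of which the most covered are shown (chrX:134721669-134721689 and chrX:136034185-136034205, both plus strand, UTR).
Armcx1 SNP with few CAST reads, 129: gaaggagtgtCgggatgtagc
Armcx1 SNP with few CAST reads, CAST: gaaggagtgtGgggatgtagc
Armcx1 most covered SNP, 129: attatcaataCccattgatgc
Armcx1 most covered SNP, CAST: attatcaataGccattgatgc
Arxes1 SNP with few CAST reads, 129: gcttaaatagCtagcaaaaaa
Arxes1 SNP with few CAST reads, CAST: gcttaaatagGtagcaaaaaa
Arxes1 most covered other SNP, 129: cgtttgttcaCctcgtgtaaa
Arxes1 most covered other SNP, CAST: cgtttgttcaTctcgtgtaaa

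The SNPs were unevenly placed. None lay between 120 and 130 Mb, the first was at 130259181 and the last at 148924022, and 162 of the 261 lay in the stretch from Cstf2 to Esx1, with 29 of the 42 genes. By annotation, 170 SNPs were in UTRs, 86 in coding sequence, 4 in other exons and 1 outside exons. In all, 253 SNPs lay in exons of exactly 1 gene, and 108 of these (42.7 %) were within 100 bases, the read length, of another SNP of their gene, so that the same reads can be counted at more than 1 SNP. Of the 253 windows of 21 bases, 16 occurred unchanged in a transcript of another gene. Among these were the adjacent SNPs of Tceal9 (the 129 window in transcripts of 2 other genes and the CAST window in 0 at the first SNP, and in 7 and 9 at the second), the SNP of Bex1 (the CAST window in the predicted gene Gm3096) and 4 of the 24 SNPs of Gprasp1 (in its paralogues Gprasp2 and Bhlhb9). RefSeq promoters (GRCm38.p6), 250 bases before to 50 after the start, matched 40 of the 42 genes and had a median of 13.5 CG dinucleotides, with 17.0 for 263 X-linked genes outside the window, and 10 or more in 28 of 40 genes (70 %) against 74.1 % outside.

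The libraries held between 32972 (Nons day 5 replicate 2) and 101511 reads (shSetdb1.4 day 5 replicate 2) over all X-linked SNPs, and between 3185 and 9230 of these reads, 7.42 to 9.66 %, fell in the region. Between 74 and 194 of its SNPs had at least 10 reads in a library, with a median of 15 to 27 reads for such a SNP, so that the ratio of a lone SNP is imprecise. Per gene, 27 of the 42 had at least 10 reads in every library, and these held 96.6 % of the region's gene reads. The other 15 were not tested (among them Trmt2b, Nxf2, Pramel3, Tmsb15a, Morf4l2, BC065397, Tmsb15b2, Slc25a53, Esx1, Tbc1d8b, Ripply1, Rbm41, Atg4a and Luzp4), and they had between 37 and 431 reads over all libraries. The counts cover the X chromosome alone, so neither Setdb1 itself nor autosomal markers of ES cells could be read. Of X-linked markers of other cell types, 2 of 6 listed for fibroblasts and 3 of 5 for trophoblast had SNPs. Timp1 and Fhl1 (fibroblasts) gave 0.694 to 2.91 reads per 1000, and Esx1, Rhox6 and Rhox9 (trophoblast) gave 0.444 to 1.65. The highest fibroblast value, 2.91, was that of day 0 replicate 1, before differentiation. In Nons cells the fibroblast markers gave 1.65 and 1.46 at day 3 and 1.09 and 1.37 at day 5, and the trophoblast markers gave 1.15 and 0.663, then 0.907 and 0.789. At day 5 the fibroblast markers were lower in all 4 knockdown libraries (1.09 and 0.956 with hairpin shSetdb1.4, 0.901 and 0.694 with hairpin shSetdb1.6) than in both Nons libraries, of which the nearest values were 1.088 and 1.091, and the trophoblast markers overlapped (0.444 to 0.970 with knockdown). Their part in the day 5 results was not tested.

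At day 0 the region as a whole was balanced. The Xi/Xa ratio is (CAST + 1)/(129 + 1) reads, and over SNPs with at least 10 reads its median log2 was 0.03 in replicate 1 and 0.00 in replicate 2, where 0 means equal reads from both chromosomes. In the rest of the X chromosome the medians were −0.14 and −0.08. Among the 27 tested genes, 5 departed from a ratio of 1 at day 0 (quasi-likelihood test of edgeR, adjusted by Benjamini-Hochberg over 247 X-linked genes), 2 towards CAST and 3 towards 129. The share of all 247 genes called was 22.3 %, with 8.10 % towards CAST and 14.2 % towards 129. Towards 129 were Lrch2, which encodes a protein with leucine-rich repeats and a calponin homology domain (log2 ratio −1.60 ± 0.37 SE, adjusted p = 0.000125), Armcx2 (−1.15 ± 0.41, adjusted p = 0.0261) and Tmem164, a membrane protein gene (−0.71 ± 0.16, adjusted p = 0.000125). Lrch2 had 13 CAST and 40 129 reads in replicate 1 and 11 and 33 in replicate 2. Tmem164 had 163 and 256 CAST and 129 reads in replicate 1 and 111 and 190 in replicate 2, and its 129 reads exceeded its CAST reads in all 14 libraries. Towards CAST were Bex1 (0.47 ± 0.14, adjusted p = 0.00413) and Rnf128, which encodes the membrane-bound E3 ubiquitin ligase Grail (0.88 ± 0.28, adjusted p = 0.0110). Bex1 gave 336 CAST and 290 129 reads in replicate 1 and 421 and 253 in replicate 2, and its CAST reads exceeded its 129 reads in all 14 libraries. These reads come from 1 SNP, whose CAST window also occurs in Gm3096, so that they are uncertain. Rnf128 gave 59 and 42 CAST and 129 reads in replicate 1 and 42 and 15 in replicate 2. These imbalances precede differentiation, and their part in later ratios of the same genes was not tested. The reads were mapped to mm10, which carries the reference bases, and the part of mapping in these ratios was not tested. DESeq2 called only Lrch2 and Tmem164 of these. Without day 0 replicate 1 the called genes were Lrch2, Rnf128 and Tmem164, and without day 0 replicate 2 they were Lrch2, Tmem164, Gprasp1 (towards CAST) and Tsc22d3 (towards 129).

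The median log2 Xi/Xa of the region in Nons cells was lower at day 5 than at day 3 in both replicates. It was 0.42 and 0.00 in replicates 1 and 2 at day 3, and −0.46 and −0.32 at day 5, so that the Nons libraries of the 2 days did not overlap. The difference was −0.594 ± 0.390 (SD, n = 2; −0.870 and −0.319 in the replicates), with p = 0.5 in a two-sided exact permutation test over pairs, the smallest that 2 pairs allow. The same difference was −0.733 for SNPs from 30 to 70 Mb and between −0.269 and −0.338 in the other windows of the chromosome (0 to 30 Mb, 70 to 90 Mb, 90 to 120 Mb and 150 Mb to the end). Region minus rest of the chromosome, the difference was −0.248 ± 0.215 (SD, n = 2; −0.400 and −0.096), again with p = 0.5 in the exact test. The median of 0.42 in Nons day 3 replicate 1 came from 97 SNPs with at least 10 reads. The plot of medians by library shows the region beside the rest of the chromosome.

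**Figure D1:**
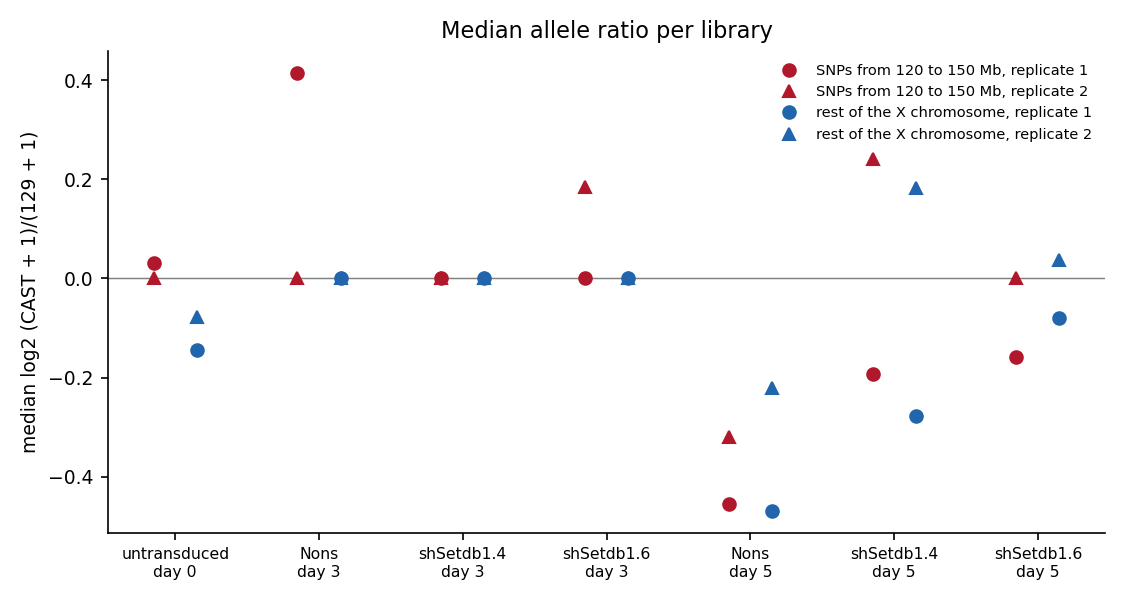
Median log2 (CAST + 1)/(129 + 1) over SNPs with at least 10 reads, for the region from 120 to 150 Mb and for the rest of the X chromosome, with 1 point per library in the 7 conditions. The region runs from −0.46 in Nons day 5 replicate 1 to 0.42 in Nons day 3 replicate 1, and at day 5 both Nons libraries lie below all 4 knockdown libraries.

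Rnf128, Arxes2 and Bex2 moved towards the 129 allele between day 3 and day 5 in Nons cells, and they were the 3 of 27 genes of the region that passed the test. Of all 247 genes 10.1 % were called in this comparison, 9.72 % towards 129. Rnf128 had Xi/Xa ratios of 1.94 and 2.06 in the Nons day 3 replicates and of 0.857 and 0.750 at day 5 (log2 difference −1.29 ± 0.40 SE, edgeR adjusted p = 0.0204). Both day 3 libraries were above 1 and both day 5 libraries below 1. Arxes2, which together with Arxes1 was first described in adipocytes, had ratios of 1.8 and 0.990 at day 3 and of 0.690 and 0.478 at day 5 (−1.09 ± 0.34, adjusted p = 0.0219). Bex2 had ratios of 1.23 and 1.10 at day 3 and of 0.605 and 0.476 at day 5 (−1.12 ± 0.40, adjusted p = 0.0480). The days did not overlap in any of the 3, as in 13 of the 27 genes, where day 5 lay below day 3 without overlap in 46.6 % of all 247 genes, and for Bex2 the day 3 ratios lay beside those of day 0 (1.31 and 1.17). These calls rested on few libraries. Without Nons day 3 replicate 1 none of the 3 was called and Tsc22d3 was, with a higher ratio at day 5. Without Nons day 3 replicate 2 only Arxes2 was called, without Nons day 5 replicate 1 only Rnf128, and without Nons day 5 replicate 2 no gene was called. DESeq2 called 0 genes of the region, and with ratios centred on each library's median only Tceal9 was called, with a higher ratio at day 5.

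Over the 27 genes, 18 had a lower Nons ratio at day 5 than at day 3, as had 186 of all 247, with median log2 differences of −0.43 and −0.33. An unadjusted p under 0.05 was found in 7 of 27 and in 57 of 247. All 7 measured Armcx/Gprasp genes had lower ratios at day 5, with log2 differences from −0.65 to −0.26 and a median of −0.52, and 0 of them were called. With ratios centred on each library's median, which moves the median of all 247 genes from −0.33 to 0.02, 6 of the 7 were lower (median −0.19), and the region as a whole had 15 lower and 12 higher genes (median −0.06). The next by p in the region were Bex4 (−0.80 ± 0.30, adjusted p = 0.0587) and Armcx1, which encodes a protein of the mitochondrial outer membrane (−0.65 ± 0.24, adjusted p = 0.0593). Armcx1 had ratios of 1.09 and 1.08 at day 3 and of 0.682 and 0.694 at day 5, and Gprasp1, which encodes a protein that directs receptors to the lysosome, had 1.14 and 1.16 at day 3 and 0.823 and 0.901 at day 5. Both belong to the 13 genes without overlap between the days. Of the 5 measured Bex/Tceal genes, 3 had lower and 2 higher ratios at day 5 (median −0.43), and Bex2 was the only member called. Bex1 had ratios of 1.36 and 1.43 at day 3 and of 1.12 and 1.81 at day 5, so that its days overlapped.

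From day 0 to day 3 no ratio change passed the test in Nons cells. Of the 27 genes 15 had higher and 12 lower ratios at day 3, with a median log2 difference of 0.10 (0.04 over the 247 genes), and 0 genes of the region and 0 % of all genes were called. In edgeR 2 genes of the region had an unadjusted p under 0.05, Bex4 (0.64 ± 0.27, adjusted p = 0.662) and Arxes1 (−0.99 ± 0.40, adjusted p = 0.589), with 11 among all 247. DESeq2 also called 0 genes of the region.

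The total reads of 5 genes rose from day 3 to day 5 in Nons cells, as reads per 1000 X-linked SNP reads after TMM normalization, and no other of the 27 genes was called in this fit, which has no replicate block. With the block the count was 9, of which 5 were higher and 4 lower (Armcx1, Cstf2, Lrch2 and Morc4). Over all 247 genes 27.9 % were called, 14.6 % upwards and 13.4 % downwards. A total is the sum of both alleles, and in these cultures fewer cells of a type and less RNA per cell cannot be told apart. Rnf128 had 0.971 and 0.645 reads per 1000 at day 3 and 5.09 and 3.24 at day 5 (log2 difference 2.40 ± 0.40 SE, adjusted p = 0.000759). Armcx2 had 0.526 and 0.700 at day 3 and 2.58 in both replicates at day 5 (2.05 ± 0.29, adjusted p = 0.000232). Tmem164 had 4.41 and 4.31 at day 3 and 7.20 and 8.78 at day 5 (0.87 ± 0.20, adjusted p = 0.00602). The days did not overlap in any of the 3, as in 8 of the 27 genes, where day 5 lay above day 3 without overlap in 29.1 % of all 247 genes. Gprasp1 went from 8.72 and 8.16 to 16.6 and 13.2 reads per 1000 (0.82 ± 0.22, adjusted p = 0.0130), and Tceal9 from 10.8 and 10.7 to 18.0 and 18.1 (0.75 ± 0.21, adjusted p = 0.0181). Armcx2 and Rnf128 were called whichever library of the 4 was left out, and the number of genes called was between 2 and 8. It was 3 without Nons day 3 replicate 1, 2 without Nons day 3 replicate 2, 3 without Nons day 5 replicate 1 and 8 without Nons day 5 replicate 2.

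For Rnf128 the lower Xi/Xa ratio at day 5 came with more reads from both alleles. Its CAST reads went from 0.648 and 0.439 per 1000 in the Nons day 3 replicates to 2.35 and 1.38 at day 5, and its 129 reads from 0.324 and 0.206 to 2.74 and 1.86. Both alleles were thus higher at day 5 in each replicate, and a test of each allele alone was not made. Armcx2, Tmem164, Gprasp1 and Tceal9 were called in their totals and not in their ratios, and Arxes2 and Bex2 in their ratios and not in their totals. The plot of ratio against total shows the genes on both measures, and the plot of allele levels gives 4 of them by library.

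**Figure D2:**
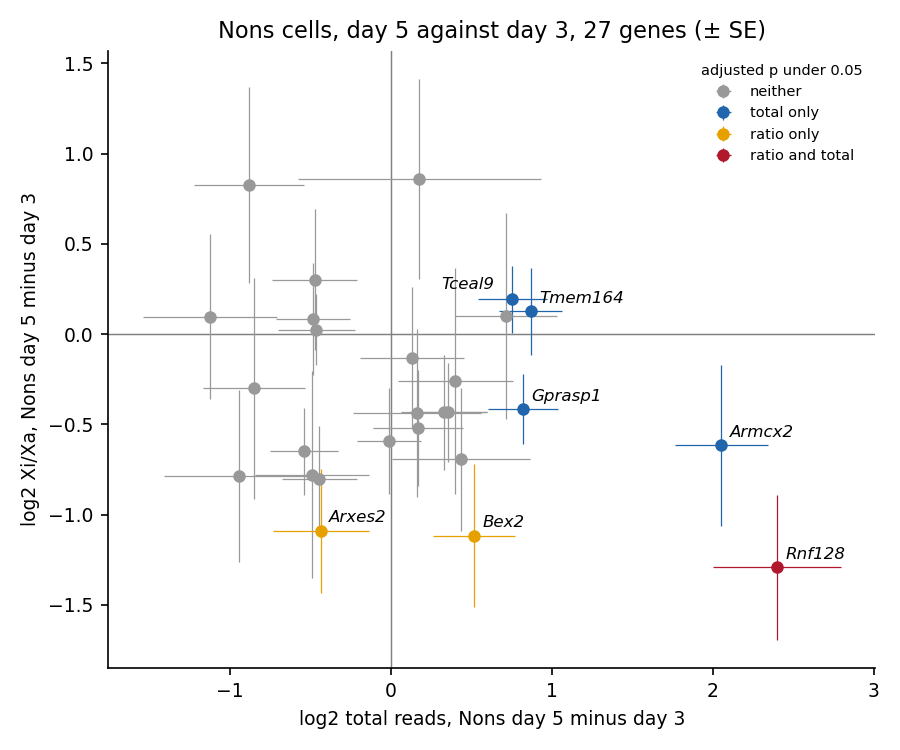
Log2 difference between day 5 and day 3 in Nons cells in the Xi/Xa ratio (vertical axis) and in total reads (horizontal axis) for the 27 tested genes of the region, with standard errors from the edgeR fits as bars. Rnf128, at −1.29 in ratio and 2.40 in total, is the only gene called in both, and 18 of the 27 genes lie below 0 in ratio.

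**Figure D3:**
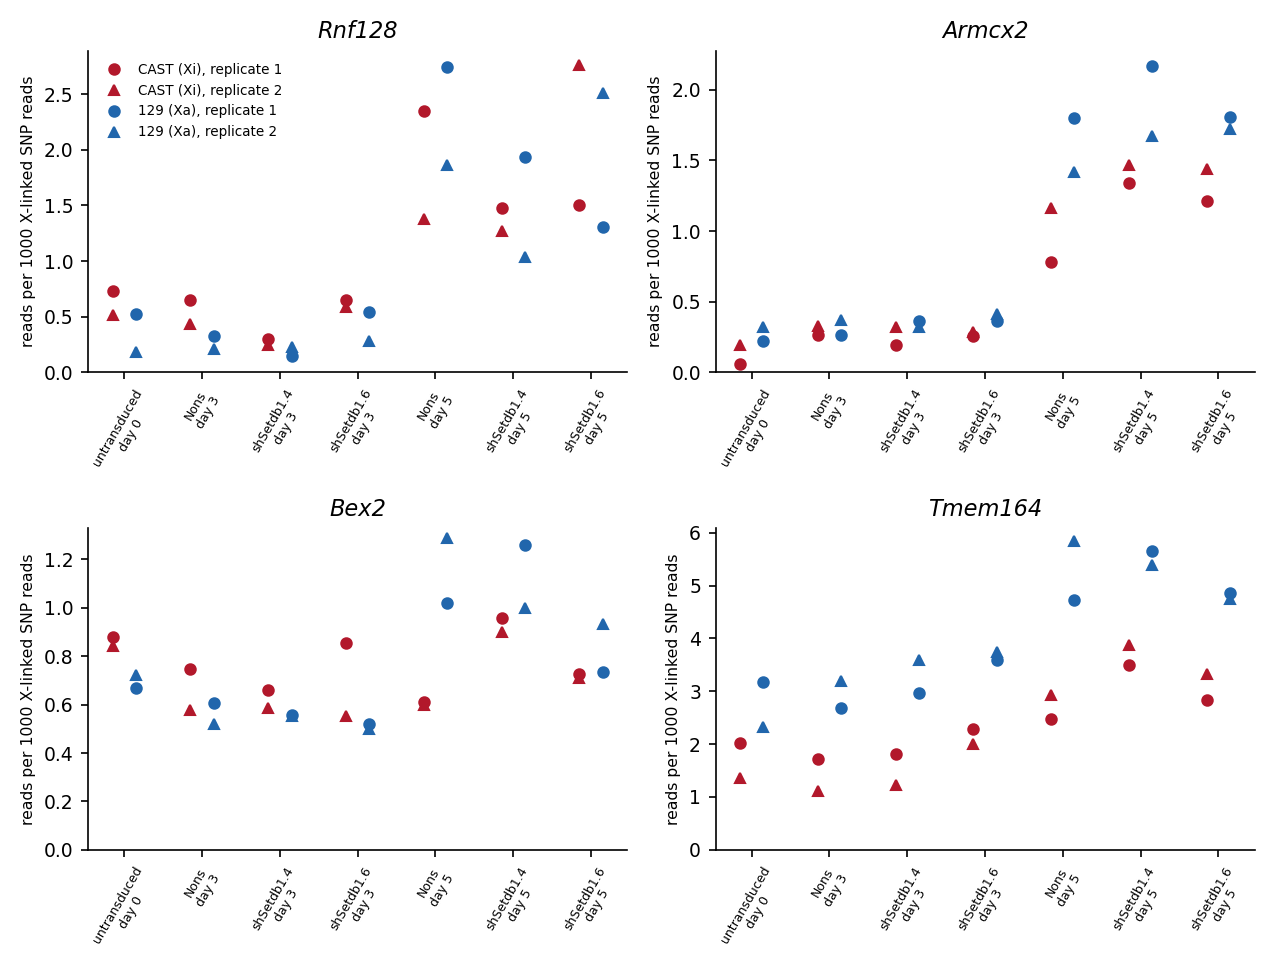
CAST and 129 reads per 1000 X-linked SNP reads for Rnf128, Armcx2, Bex2 and Tmem164 in each of the 14 libraries by condition. In Nons cells, CAST reads of Rnf128 lie at 0.648 and 0.439 at day 3 and at 2.35 and 1.38 at day 5, while 129 reads go from 0.324 and 0.206 to 2.74 and 1.86.

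From day 0 to day 3, 4 genes of the region changed in total reads, where 9.72 % of all 247 genes were called (4.45 % upwards and 5.26 % downwards). Tceal8 rose from 1.39 and 2.07 to 2.99 and 4.10 reads per 1000 (1.04 ± 0.25 SE, adjusted p = 0.0260) and Bex1 from 7.77 and 8.24 to 16.1 and 12.9 (0.86 ± 0.24, adjusted p = 0.0397). Gla, which encodes the lysosomal alpha-galactosidase A, fell from 1.27 and 0.880 to 0.486 and 0.412 (−1.26 ± 0.30, adjusted p = 0.0260), and Diaph2, a formin gene of the actin cytoskeleton, from 3.82 and 4.29 to 2.25 and 2.09 (−0.91 ± 0.26, adjusted p = 0.0397). The days did not overlap in any of the 4, nor in 9 other genes of the region, and over all 247 genes the share without overlap in either direction was 54.3 %. The X-linked trophoblast markers were lower at day 3 (1.15 and 0.663 reads per 1000) than at day 0 (1.28 and 1.65) without overlap, and the fibroblast markers overlapped (2.91 and 1.52 at day 0, 1.65 and 1.46 at day 3). Their part in these changes was not tested. Without day 0 replicate 1, or without Nons day 3 replicate 2, 0 genes of the region were called, without day 0 replicate 2 Gla and Tceal8 were, and without Nons day 3 replicate 1 only Tceal8 was.

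At day 5 the Xi/Xa ratios of the region were higher with both Setdb1 hairpins than with Nons. The median log2 Xi/Xa was −0.46 and −0.32 in the Nons replicates, −0.19 and 0.24 with hairpin shSetdb1.4 and −0.16 and 0.00 with hairpin shSetdb1.6. Every knockdown library was above both Nons libraries, and shSetdb1.4 replicate 2 stood highest. Knockdown minus Nons was 0.359 ± 0.113 (SD, n = 2; 0.279 and 0.439 in the replicates). The exact permutation test within replicates, two-sided, gave p = 0.1111, the smallest that the 9 arrangements allow, and 0.1333 without the pairing. The 4 comparisons of a hairpin with Nons in the same replicate gave 0.262 and 0.560 for hairpin shSetdb1.4 and 0.297 and 0.319 for hairpin shSetdb1.6. Without shSetdb1.4 day 5 replicate 2 the difference was 0.299. Timp1 and Fhl1, the fibroblast markers with SNPs, barely separated these groups (1.088 with shSetdb1.4 replicate 1 against 1.091 with Nons replicate 1). Their part was not tested.

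The difference in the region was near that of the rest of the chromosome. The other windows gave between 0.268 (0 to 30 Mb) and 0.414 (30 to 70 Mb) at day 5. Region minus rest was 0.048 ± 0.083 (SD, n = 2; −0.011 and 0.107; exact permutation p = 0.6667), and its sign turned with at least 20 reads per SNP (−0.091) and with summed counts (−0.181). Summed counts, to which Tceal9 contributes the most reads when reads are counted at each SNP, also gave a smaller difference for the region itself. It was 0.124 (exact permutation p = 0.4444).

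Per SNP, those with at least 10 reads in the 3 day 5 libraries of a replicate were compared. In replicate 1, 70 of 143 SNPs of the region (49.0 %) had a higher ratio with both hairpins than with Nons and 27 (18.9 %) a lower ratio with both, and over all X-linked SNPs these shares were 51.5 % and 17.5 %. In replicate 2, 46 of 74 SNPs (62.2 %) were higher and 11 (14.9 %) lower, with 59.1 % and 16.9 % over all X-linked SNPs. Of 72 SNPs compared in both replicates, 26 (36.1 %) were higher in both, near the 32.6 % of all X-linked SNPs (249 of 763), and they lay in 12 genes. Gprasp1 held 7 of them, Tmem164 5, Armcx1 and Bhlhb9 3 each, and Armcx2, Armcx4, Arxes2, Bex1, Bex2, Bex4, Gla and Tceal8 1 each. In the edgeR fit per SNP, 41 of 50 tested SNPs of the region had a higher ratio with knockdown, as had 490 of all 580 X-linked SNPs tested, with median log2 differences of 0.40 and 0.35. Only the adjacent SNPs of Tceal9 passed the test, both towards 129, and they were the 0.345 % of all SNPs called. As neighbouring bases they are covered by the same reads and are not separate observations.

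Per gene, 22 of 27 had a higher and 5 a lower Xi/Xa ratio with knockdown at day 5, beside 206 and 41 of all 247. The median log2 difference was 0.37 in the region and 0.35 over the 247 genes. With ratios centred on each library's median, 16 were higher and 11 lower, with medians of 0.03 in the region and 0.02 over all genes. In 15 of 27 genes the uncentred ratio was above that of Nons with both hairpins in both replicates, and 49.8 % of all genes met the same criterion. It was below in all 4 comparisons in 0 genes of the region and in 2.43 % of all genes. Of all genes 4.05 % were called. No gene of the region was called higher, where 3.64 % of all genes were, and Tceal9 was called lower (0.405 % of all genes, so that it was the only one). In edgeR 4 genes of the region and 62 of all 247 had an unadjusted p under 0.05.

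Of the 7 Armcx/Gprasp genes, 6 had higher ratios with knockdown and 1 lower, with a median log2 difference of 0.37 and 0 called, and 5 were higher with centred ratios (median 0.05). Gprasp1 had ratios of 0.823 and 0.901 with Nons, 1.02 and 1.28 with hairpin shSetdb1.4 and 1.05 and 1.14 with hairpin shSetdb1.6 (0.37 ± 0.16 SE, edgeR adjusted p = 0.135). All 4 knockdown libraries lay above both Nons libraries, as in 8 of the 27 genes and in 32.4 % of all 247. Armcx4 had 0.639 and 0.623 with Nons, 0.814 and 1.27 with hairpin shSetdb1.4 and 1.11 and 0.658 with hairpin shSetdb1.6 (0.61 ± 0.26, adjusted p = 0.135). Armcx1 had 0.682 and 0.694, then 0.754 and 1.15, and 0.882 and 0.910 in the same order (0.42 ± 0.21, adjusted p = 0.197). In both genes the groups did not overlap. The Armcx1 value depends on its SNPs, since with 1 SNP per gene, the most covered, it was −0.31 (adjusted p = 0.685). Bhlhb9, which belongs to the same family, overlapped between groups, with 0.608 and 0.857 with Nons, 0.850 and 1.21 with hairpin shSetdb1.4 and 0.846 and 0.856 with hairpin shSetdb1.6 (0.43 ± 0.25, adjusted p = 0.220). The member with the lower ratio was Gprasp2 (−0.29 ± 0.38). Without shSetdb1.4 day 5 replicate 1 that hairpin had 1 library at day 5, and calls changed in genes of this family and of the Bex/Tceal family. The share of all X-linked genes called in that fit is not given here, so these changes are not particular to a family.

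Of the 5 Bex/Tceal genes, 4 had higher ratios and 1, Tceal9, a lower ratio, with a median log2 difference of 0.34, and 3 were higher with centred ratios (median 0.01). Bex2 had ratios of 0.605 and 0.476 with Nons, 0.764 and 0.903 with hairpin shSetdb1.4 and 0.986 and 0.766 with hairpin shSetdb1.6 (0.66 ± 0.32, edgeR adjusted p = 0.167). Its knockdown libraries were all above Nons and below its day 0 ratios of 1.31 and 1.17. Tceal8 had 0.686 and 0.977 with Nons, 0.895 and 1.29 with hairpin shSetdb1.4 and 1.00 and 1.07 with hairpin shSetdb1.6 (0.40 ± 0.23, adjusted p = 0.221). Bex4 had 0.888 and 1.63, then 1.19 and 1.86, and 1.17 and 1.89 in the same order (0.34 ± 0.26, adjusted p = 0.362). Both were higher than Nons with both hairpins within each replicate, and both overlapped across replicates, since replicate 2 was above replicate 1 in every condition at day 5. Bex1 had 1.12 and 1.81 with Nons, 1.14 and 2.69 with hairpin shSetdb1.4 and 1.35 and 1.96 with hairpin shSetdb1.6 (0.25 ± 0.17, adjusted p = 0.310).

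**Figure D4:**
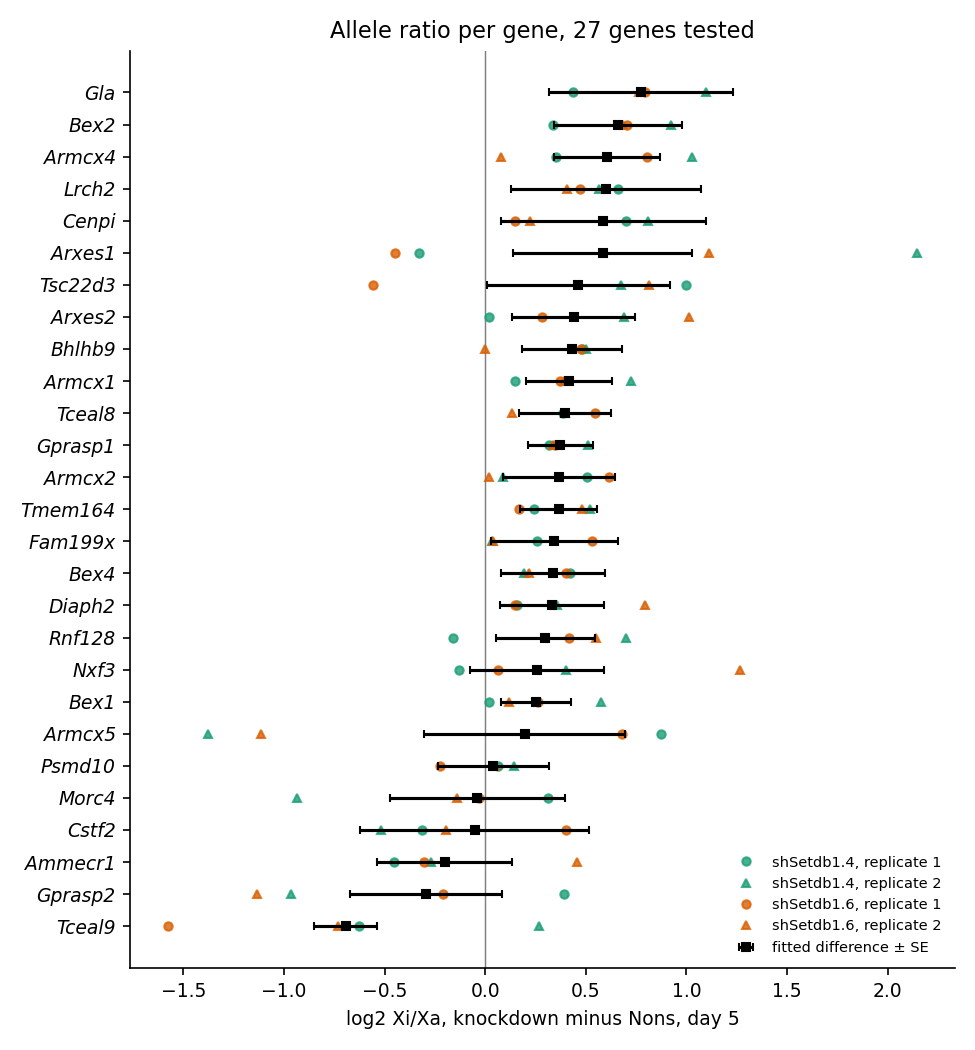
Log2 difference in Xi/Xa ratio between knockdown and Nons at day 5 for the 27 tested genes of the region, with standard errors from the edgeR fit and the values of each hairpin against Nons in each replicate. The fitted difference is above 0 in 22 genes, and Tceal9, at −0.69, is the only gene that passed the test.

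The 3 measured genes of organelles and proteolysis all had higher ratios with knockdown (median 0.30), of which 1 stayed higher with centred ratios. They were Gla, with 0.738 and 0.818 with Nons against 1.00, 1.75, 1.28 and 1.39 in the knockdown libraries (0.77 ± 0.46 SE, edgeR adjusted p = 0.229), Rnf128 (0.30 ± 0.25, adjusted p = 0.395) and Psmd10, the gene of a proteasome assembly chaperone (0.04). Gla had 18 reads in Nons replicate 2. Of the 5 chromatin, centromere and transcription genes 3 were higher and 2 lower (median 0.34), with the same counts after centring. Of the 2 signalling and cytoskeleton genes, Diaph2 and Lrch2, both were higher (median 0.47) and 1 after centring, and of the 2 RNA processing genes, Cstf2 and Nxf3, 1 was higher and 1 lower, and both were lower after centring. Tmem164 was higher (0.37 ± 0.19, adjusted p = 0.204), as was Arxes2 (0.44 ± 0.31, adjusted p = 0.321). Lower values were fitted for Ammecr1 (−0.20 ± 0.34), Cstf2 (−0.05 ± 0.57) and Morc4 (−0.04 ± 0.44), each within its standard error. Lrch2 had ratios of 0.341 and 0.353 at day 0, 0.5 and 0.413 in Nons at day 3 and 0.792 and 0.833 in Nons at day 5, and from 1.10 to 1.25 in the knockdown libraries of day 5. Neither step between the days was called (edgeR adjusted p = 0.976 from day 0 to day 3 and 0.326 from day 3 to day 5), and all knockdown libraries of day 5 were above Nons (0.60 fitted, not called).

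Tceal9 was called towards 129 with knockdown at day 5 (−0.69 ± 0.16 SE, edgeR adjusted p = 0.00253), and its adjacent SNPs carry the call. These are neighbouring bases covered by the same reads, so they are not separate observations. The gene fit counts such reads at each SNP, and its standard error may be too small. Fitted per SNP, they gave −0.81 ± 0.18 and −0.71 ± 0.18 SE. The Tceal9 ratio was 0.792 and 0.821 with Nons, 0.512 and 0.987 with hairpin shSetdb1.4 and 0.265 and 0.494 with hairpin shSetdb1.6. Within replicates 3 of the 4 comparisons were lower than Nons, and shSetdb1.4 replicate 2 was higher. Its total had no such pattern, with 18.0 and 18.1 reads per 1000 with Nons, 18.1 and 15.3 with hairpin shSetdb1.4 and 15.3 and 17.4 with hairpin shSetdb1.6. The adjacent SNPs hold 6003 and 6019 reads, and their windows also occur in transcripts of other genes, and the upstream SNP holds 543. The mean ratio of the adjacent SNPs was 0.829 and 0.834 with Nons, 0.516 and 1.02 with hairpin shSetdb1.4 and 0.260 and 0.497 with hairpin shSetdb1.6. At the upstream SNP it was 0.259 and 0.611 with Nons, 0.438 and 0.344 with hairpin shSetdb1.4 and 0.422 and 0.452 with hairpin shSetdb1.6, so that knockdown libraries lay between the Nons replicates. Fitted from the upstream SNP alone, knockdown minus Nons was 0.21 ± 0.47 SE (adjusted p = 0.789), an alternative chosen after seeing the data. The call was also lost without Nons day 5 replicate 1 (−0.41), without shSetdb1.6 day 5 replicate 1 (−0.57), in DESeq2 and without the replicate block.

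**Figure D5:**
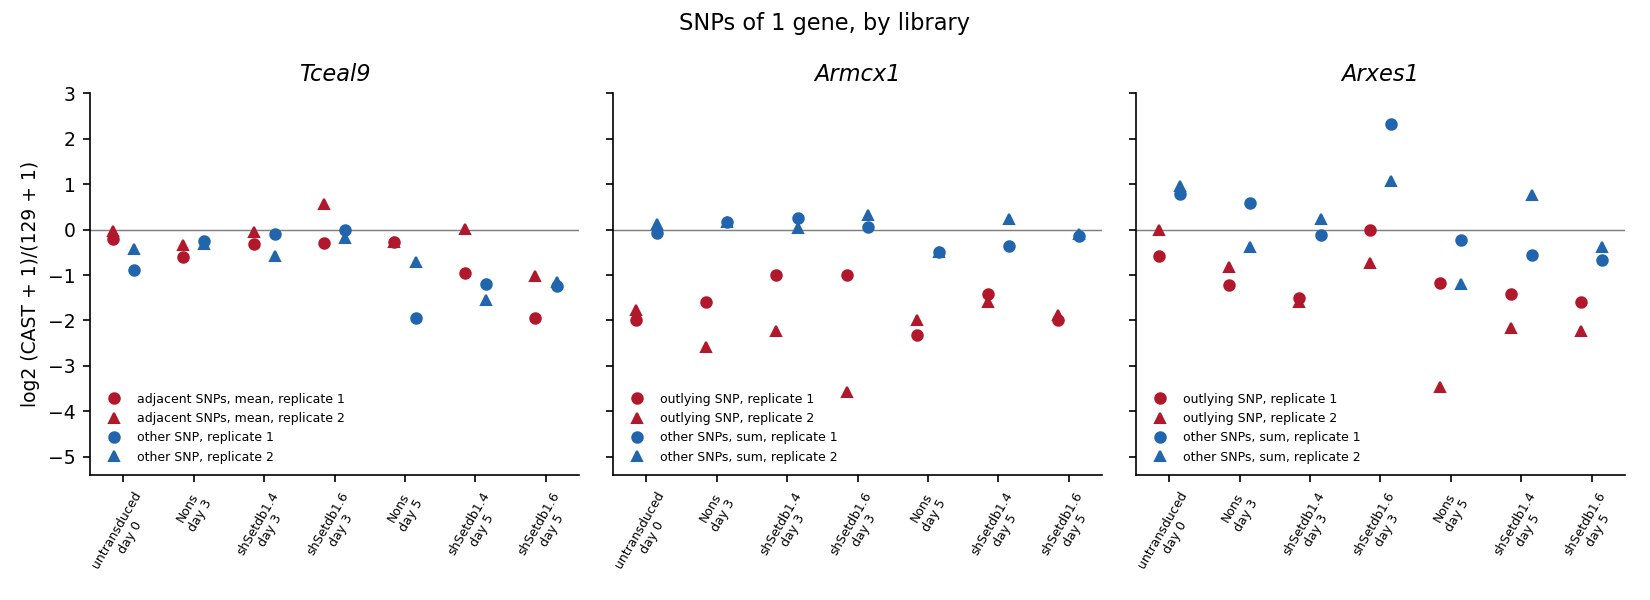
Log2 Xi/Xa ratio in each of the 14 libraries for the adjacent SNPs of Tceal9 (red, mean) and its upstream SNP (blue, other SNP), and for the SNP with few CAST reads in Armcx1 and in Arxes1 (red, outlying SNP) beside the sum of the other SNPs of the same gene (blue). The Armcx1 and Arxes1 SNPs lie below the others in all 14 libraries, and for the Nons day 5 libraries the adjacent Tceal9 SNPs, at ratios of 0.829 and 0.834, lie above the upstream SNP, at 0.259 and 0.611.

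Few SNPs stood constantly apart from the others of their gene. Among 138 SNPs with at least 140 reads and another SNP of the gene at least 100 bases away, 2 were lower than the others of their gene in all 14 libraries, 0 were higher in all 14, and 9 lay on the same side in at least 13. The Armcx1 SNP with few CAST reads had 24 CAST and 127 129 reads over all libraries, a ratio of 0.195 where the other SNPs gave 1.01. The neighbouring Armcx1 SNP at 134719100 had 126 and 273, a ratio of 0.464 where the others gave 1.03, and was lower in 13 of 14 libraries. The Arxes1 SNP had 54 and 151, a ratio of 0.362 where the others gave 1.16. The SNP of Armcx1 with few CAST reads and that of Arxes1 were below the others in both day 0 libraries as in the later ones.

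At day 3 the ratios of the region did not differ in a shared direction between knockdown and Nons. Knockdown minus Nons was −0.161 ± 0.359 (SD, n = 2; −0.415 and 0.092; exact permutation p = 0.3333) for the region's median. In replicate 1, 13 of 59 SNPs (22.0 %) were higher and 23 (39.0 %) lower with both hairpins, beside 29.1 % and 34.5 % over all X-linked SNPs, and in replicate 2, 29 of 85 (34.1 %) were higher and 20 (23.5 %) lower, beside 33.6 % and 29.5 %. Per gene, 11 were higher and 16 lower with a median of −0.01, and 0 genes of the region and 0 % of all genes were called by edgeR, with 3 of 27 at an unadjusted p under 0.05 and 7 of 247. These 3 were Tsc22d3, the gene of the glucocorticoid-induced leucine zipper (1.53 ± 0.52 SE, adjusted p = 0.670), Tceal9 (0.45 ± 0.17, adjusted p = 0.670) and Arxes1 (0.77 ± 0.38, adjusted p = 0.985). DESeq2 called 0 as well. Tsc22d3 had 1 CAST and 23 129 reads in Nons replicate 2, and 30 and 22 in Nons replicate 1. With the knockdown its ratio was from 0.906 to 2.60, and without Nons day 3 replicate 1 it was called higher. Morc4, Tceal9 and Tsc22d3 were above Nons in all 4 comparisons (8.10 % of all genes) and Bex4, Cstf2 and Rnf128 below in all 4 (9.31 %).

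The difference between the effect at day 5 and that at day 3 was tested in the same fit. It was above 0 in 21 of 27 genes and in 191 of all 247, with a median of 0.39 (0.33 over all genes; 14 of 27 and 0.03 with centred ratios), and 1 gene of the region was called, where 0.810 % of all genes were. That gene was Tceal9, at −1.14 ± 0.23 SE (adjusted p = 0.000197), and without the SNPs whose window occurs in another gene it was 0.11 ± 0.69 (adjusted p = 0.949). The call was also lost without the replicate block (−1.105, adjusted p = 0.1755) and in DESeq2 (−1.13, adjusted p = 0.0514). Without Nons day 3 replicate 2 (−0.99) and without Nons day 5 replicate 1 (−0.86) it was no longer called, and without Nons day 3 replicate 1 Tsc22d3 was called too, also downwards. Bex4 had the largest positive value with an unadjusted p under 0.05 (0.76 ± 0.36, adjusted p = 0.349). It was above Nons in all 4 comparisons at day 5 and below in all 4 at day 3.

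Total reads of the genes did not pass the test between knockdown and Nons on either day. At day 5, 16 genes were higher and 11 lower, with a median log2 difference of 0.03, and 0 genes of the region and 0 % of all genes were called. In edgeR 2 genes of the region had an unadjusted p under 0.05, Fam199x (0.83 ± 0.28 SE) and Ammecr1 (0.56 ± 0.23), both with adjusted p = 0.986, and 6 of all 247. At day 3, 12 were higher and 15 lower with a median of −0.05, and 0 genes and 0 % were called. Gla was the only gene of the region with an unadjusted p under 0.05 (0.61 ± 0.28, adjusted p = 0.997), among 4 of 247. DESeq2 called 0 genes of the region on both days. The 7 Armcx/Gprasp genes had log2 differences in total from −0.10 to 0.34 at day 5 and the 5 Bex/Tceal genes from −0.35 to 0.03, with 0 called in either.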

How the data were processed

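RNA from 7 conditions with 2 replicates each was sequenced as single-end reads of 100 bases. According to the methods and the submitters' processing notes, base calls were made with CASAVA 1.8.2, reads were mapped to mm10 with Subread, and SAMtools pileup counted how many reads carried either allele at X-linked SNPs. The authors deposited the counts raw and per library, without pooling replicates. The reference base (mm10) was taken as 129 and the alternative as CAST. A further 4 count columns of other samples were not used. Strand was not stated to be used, so overlapping genes and close copies may share reads.

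SNPs were assigned to genes by exons of GENCODE M21 (mm10), and those in exons of exactly 1 gene were summed per gene. Ratios used a pseudocount of 1 and SNPs with at least 10 reads. The 247 X-linked genes that reached 10 reads in every library entered edgeR 4.0.16 (R 4.3.3). Its quasi-likelihood p-values were adjusted by Benjamini-Hochberg over all of them, and calls are at an adjusted p under 0.05. The allele fit took the 28 count columns with a term per library, an allele effect per condition and an allele effect per replicate (the block). Totals were fitted with TMM and without a block. DESeq2 1.42.0 was an alternative. Exact permutation tests of library medians were run in Python 3.11.15 with scipy 1.17.1. The models were tested on simulated data.

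The members, gene lists and tests were chosen with earlier results of these data known. Genes named are those called in any comparison, the 5 smallest p-values per direction and comparison, the 12 genes with the most reads, and list members, together with genes not tested. A gene and a sequence are not reported here. The 32972 to 101511 reads per library set the precision. They carry no molecular identifiers, so a molecule can be counted more than once. Alternatives changed the read minimum, filter, block, tool, centring, SNPs and libraries.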

Additional observations from a re-analysis of the deposited data

Results flagged for a closer look

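Tceal9 was flagged because a test of the difference itself separated the effect of knockdown on its allele ratio at day 5 from that at day 3, at −1.14 ± 0.23 on the log2 scale (SE; edgeR adjusted p = 0.000197). It was not called without the replicate block (adjusted p = 0.1755) or by DESeq2 (adjusted p = 0.0514). Both of these fits gave a difference of nearly the same size, as printed above. The ratio was higher than Nons in 4 of 4 comparisons at day 3 and in 1 of 4 at day 5. The value comes from the adjacent SNPs, which are covered by the same reads and whose windows also occur in transcripts of other genes. From the upstream SNP alone it was 0.11 ± 0.69. The origin of the reads at the adjacent SNPs was not tested.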

How the results depend on the processing

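The region's higher median Xi/Xa with knockdown at day 5 kept its direction in all alternatives run, with 0.279 to 0.439 when a replicate was left out and 0.124 at the lowest, for summed counts. Knockdown minus Nons at day 3 gave −0.415 and 0.092 when a replicate was left out, and 0.017 as a median over genes. Region minus rest at day 5 gave −0.011 to 0.107 when a replicate was left out, −0.091 with at least 20 reads and −0.181 with summed counts. The Nons day 5 minus day 3 difference gave −0.870 to −0.319, and region minus rest −0.400 to −0.096. The count of SNPs higher with both hairpins at day 5, summed over replicates so that a SNP higher in both counts once in each, was 116. It was 70 of 143 SNPs in replicate 1 (51.5 % over all X-linked SNPs) and 46 of 74 in replicate 2 (59.1 %). With at least 20 reads it was 58 and with 1 SNP per gene 23, in settings that compare fewer SNPs.

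Same-numbered libraries deviated together weakly across genes, with a mean correlation of 0.0514 (−0.139 to 0.266) over 21 pairs of conditions for ratios and 0.209 (−0.0572 to 0.657) for totals. This correlation leaves out a shift shared by all genes of a library, so it cannot decide whether the numbers pair the samples. At day 5 the region's median log2 Xi/Xa was higher in replicate 2 than in replicate 1 with Nons and with each hairpin. At day 3 it was 0.42 and 0.00 with Nons, 0.00 and 0.00 with hairpin shSetdb1.4, and 0.00 and 0.18 with hairpin shSetdb1.6. The allele fits and the medians compare hairpins with Nons within a replicate number all the same, as the study did, and calls rest on this. Without the replicate block 0 genes and 0 SNPs of the region were called for knockdown at day 5, 0 for its difference from day 3, and 3 at day 0, and Morc4 turned to 0.0359 for knockdown at day 5. With the block, 9 genes were called in total reads between the Nons days. DESeq2 called 0 genes for knockdown at day 5, 0 for its difference from day 3, 0 for the ratio between the Nons days and 2 at day 0. A minimum of 30 reads left 2 calls at day 0 and 3 in Nons totals, and no filter gave 8 in Nons totals. Centred ratios gave 1 call between the Nons days, and 1 SNP per gene gave 1 there, 1 at day 0 and −0.3123 for Armcx1 with knockdown at day 5. Without SNPs whose window occurs in another gene, an alternative chosen after seeing the data, 0 genes were called for knockdown at day 5 and 0 for its difference from day 3, and Tceal9 turned to 0.2123 and 0.1093. The cause of these changes was not tested, other than that a higher minimum and 1 SNP per gene test fewer genes.

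With libraries left out in turn, the called genes numbered 0 to 5 for the ratio with knockdown at day 5, 0 to 1 at day 3, 0 to 2 for the difference between the days, 0 to 1 between the Nons days, 3 to 4 at day 0, and 0 to 3 SNPs. For totals they numbered 2 to 8 between the Nons days and 0 to 2 between day 0 and day 3. Knockdown at day 5 then ranged from −0.7587 to 0.2168 for Morc4, from −0.4729 to 0.1687 for Cstf2 and from −0.3459 to 0.0448 for Ammecr1. Single values were recomputed only for the genes called in a comparison and, for knockdown at day 5, for the 5 smallest p-values per direction. Of these 312 values, 240 kept direction and side of the threshold, 59 were no longer called, 3 became called and 10 reversed. Calls gained by any other gene are in the counts of calls only. Where a condition was left with 1 library, it was assumed to vary like the others. Depth limits single SNPs, with a median of 15 to 27 reads per SNP.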
